A study of Mus musculus with 22 samples.

Results

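The C-type lectin receptor genes, here every gene whose symbol starts with Clec, a number and a letter, were followed in mouse myeloid cells that carried or lacked VISTA, the immune checkpoint protein encoded by Vsir. The symbol rule used no measured value and found 33 members among the 35255 genes of 3 tables of raw counts. The family itself was chosen with earlier results of these data known. The cells came from wild-type (WT) mice and from VISTA knockout (KO) mice, and the strain background of both genotypes is C57BL/6N. Bone marrow (BM) myeloid cells were cultured in normoxia and taken at day 4, with 4 WT and 4 KO libraries, after growth of myeloid progenitors with the cytokines GM-CSF and IL-6. Hypoxia cultures of BM myeloid cells, labelled 24 hours, gave 4 WT and 4 KO libraries, and the labels do not name their cytokines. Tumor tissue of MC38, a mouse colon carcinoma line, was taken at day 7 and gave 3 WT and 3 KO libraries; the labels give neither the number of animals behind a library nor whether cells were purified, and do not describe the Vsir allele. Only the normoxia cultures are stated to be independent biological replicates, so elsewhere p-values measure only the spread between these samples, which may be technical.

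C-type lectin receptors carry a carbohydrate-recognition type of domain and stand on myeloid cells, where they bind sugars and lipids of fungi and bacteria or molecules of dying host cells. Activating members couple to the kinase SYK through adaptors such as FcR gamma (Fcer1g) and DAP12 (Tyrobp), or through a tyrosine motif of their own, and SYK signals on through CARD9, BCL10 and MALT1 to NF-kappaB. Inhibitory members carry a motif that recruits the phosphatases SHP-1 and SHP-2 and damp such signals. Not every Clec gene encodes a receptor of this kind: Clec11a and Clec3b encode secreted proteins, and Clec16a encodes an endosomal protein that acts in mitophagy.

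Libraries held 23409142 to 23722932 counts in normoxia, 30839108 to 31385825 in hypoxia and 19119985 to 31716200 in the tumor experiment. Every tumor KO library (at most 23089943 counts) was shallower than every tumor WT library (at least 27452024). Vsir fell in KO to 24.8% of its WT level in normoxia, 26.9% in hypoxia and 25.8% in tumor, with no overlap between the genotypes (exact two-sided permutation test, p = 0.0286, 0.0286 and 0.1, each the smallest p the design allows). The samples labelled tumor tissue had 16.7 to 57.9 CPM (counts per 1000000 counts of the library) summed over 5 epithelial and carcinoma markers and 10855 to 12071 CPM over 9 monocyte and macrophage markers. The culture libraries had 44.5 to 288 CPM over the same epithelial markers, of which Krt8 and Krt19 were not listed in normoxia. These sums cannot show how much carcinoma RNA was present in the samples labelled tumor. Their 9 neutrophil markers summed to 5.07 to 9.64 CPM, with Camp at 0 in all of them, against 22404 to 58594 CPM in the culture libraries. In the cultures that neutrophil sum was higher in every KO library than in any WT library, 40124 to 58289 against 28755 to 39086 CPM in normoxia and 47281 to 58594 against 22404 to 30993 CPM in hypoxia. Markers of mast cells and basophils were also higher in every culture KO library, with sums over 7 genes of 43.1 to 62.2 CPM in WT and 89.7 to 124 in KO in normoxia, and 397 to 604 against 618 to 903 in hypoxia. All 6 of them that were tested in normoxia and all 7 in hypoxia were called higher. The part of these cells in the KO differences of Clec genes was not tested. In these bulk samples, fewer cells of a type and less RNA per cell cannot be told apart. Normoxia WT replicate 3 and KO replicate 4 stood apart from the rest of their groups in an earlier look at these data, and counts of calls in normoxia are given with and without them.

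Of the 33 members, 25 lie on mouse chromosome 6 (GRCm38). The proximal group of 9 neighbours, Clec4a1, Clec4a3, Clec4a4, Clec4b1, Clec4a2, Clec4b2, Clec4n, Clec4d and Clec4e, spans chr6:122921848-123289870. The distal group of 13, from Clec2h to Clec7a, spans chr6:128662385-129472779 and holds the Clec2 genes, Clec12a, Clec12b, Clec1b, Clec9a and Clec1a. The Clec4a and Clec4b genes, and the Clec2 genes, are close relatives, so reads may have been split between them in counting. Exons of Clec1b and Clec9a overlap on the same strand, and the deposited counts do not show how shared reads were assigned. The annotation (GENCODE M21) lists Clec2f as a transcribed pseudogene and Clec7a as a polymorphic pseudogene, a class for genes that are intact in some strains.

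RefSeq promoter sequences (GRCm38.p6) were held for 26 members, with 29 windows of 250 bases before a start. Clec4n, Clec10a, Clec4a4, Clec2f, Clec1a, Clec3a and Clec3b had no entry. Sequences of 4 genes of the proximal group are shown, since these near neighbours differed in their KO values. Capitals mark matches, on either strand, to the STAT element TTCNNNGAA, the hypoxia element cores ACGTG and GCGTG, the C/EBP element TTNNGCAA or the PU.1 site GAGGAA. The sequences of Clec4b2, Clec4d and Clec4e stop before any annotated exon base of their gene. For Clec4a2 only the match and 10 bases on each side are given, and they were not cut at exons. Of the 250 bases of the Clec4a2 window, 68 lie in annotated exons of that gene. Its start is internal, since the annotated gene spans chr6:123106428-123143999, so the match lies within the gene.
Clec4a2 (chr6:123122638-123122666, plus strand): ctagaggagaTTCAAAGAAgggaagtctt
Clec4b2 (chr6:123172773-123172892, plus strand): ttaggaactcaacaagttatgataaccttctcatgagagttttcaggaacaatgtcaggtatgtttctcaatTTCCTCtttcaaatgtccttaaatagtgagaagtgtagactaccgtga
Clec4d (chr6:123261857-123262106, plus strand): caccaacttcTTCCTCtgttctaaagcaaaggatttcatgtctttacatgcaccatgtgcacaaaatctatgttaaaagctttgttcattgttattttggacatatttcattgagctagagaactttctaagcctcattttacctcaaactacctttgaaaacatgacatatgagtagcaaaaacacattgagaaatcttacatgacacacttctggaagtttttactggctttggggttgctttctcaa
Clec4e (chr6:123289872-123290121, minus strand): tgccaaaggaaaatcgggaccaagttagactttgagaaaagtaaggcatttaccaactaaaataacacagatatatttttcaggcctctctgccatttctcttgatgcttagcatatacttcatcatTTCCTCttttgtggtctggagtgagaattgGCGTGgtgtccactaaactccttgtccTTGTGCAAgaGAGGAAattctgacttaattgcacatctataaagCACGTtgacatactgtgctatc
The Clec4a2 window was the only one of the 29 with the STAT element, which 7.02% of all 32851 promoter windows of this length hold. The Clec4e window held 5 matches to 4 of the motifs, all but the STAT element. The shares of all windows with a match were 16.57% for ACGTG, 28.16% for GCGTG, 9.564% for the C/EBP element and 23.25% for GAGGAA, against 3, 5, 4 and 15 of the 29 Clec windows. A match describes letters and shows no binding.

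Counts allowed a test in at least 1 experiment for 21 members and in all 3 for 15. In normoxia 28 members were listed and 18 tested, in hypoxia 32 and 19, and in tumor 27 and 18. The members listed but not tested had at most 23, 21 and 18 counts in any library of the respective experiment. Clec14a, Clec2l, Clec4f, Clec2h, Clec2g, Clec2e, Clec2m, Clec12b, Clec4g, Clec18a, Clec3a and Clec3b had too few counts for a test in each experiment. Among them are Clec4f, a Kupffer cell receptor, Clec4g of liver and lymph node sinusoids, and the endothelial Clec14a, which was listed only in tumor with at most 2 counts in a library. Clec4b2 was tested in both cultures and was not listed in tumor, where a gene needed 2 counts over the table to be listed. Clec4a4 had too few counts in hypoxia, Clec4b1 in normoxia, Clec11a in tumor, Clec1a in both cultures, and Clec2f in normoxia and tumor.

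Members were ordered by level per kilobase of exon, with the length taken over the exons of all annotated transcripts. The order depends on that length. In CPM without division by length, Clec12a (317) and Clec5a (211) stood above Clec4n (154) in normoxia WT. Clec4e (233) stood above Clec4n (154) in hypoxia WT, and Clec4e and Clec7a (279 each) above Clec4a3 (166) in tumor WT. In normoxia WT cultures Clec4n (Dectin-2, a receptor for fungal mannans) led with 108 ± 16.2 CPM per kilobase (SD, n = 4). It was followed by Clec12a, an inhibitory receptor for uric acid crystals, with 57.4 ± 4.55 and by Clec5a, a DAP12-coupled activating receptor, with 54.9 ± 5.19, and the libraries of these 2 overlapped. Clec7a (Dectin-1, the receptor for beta-glucan), Clec4d, Clec4a2 and Clec4e followed between 26.0 and 31.8 CPM per kilobase with overlap from each to the next. Hypoxia WT cultures again had Clec4n on top at 109 ± 18.9 CPM per kilobase (n = 4), above Clec7a, Clec5a and Clec4e at 59.2, 49.9 and 46.9, whose libraries overlapped from each to the next.

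The order differed in tumor tissue. Clec4a3, a relative of the inhibitory receptor gene Clec4a2, had 125 ± 13.8 CPM per kilobase (n = 3) in WT tumor samples and Clec7a had 106 ± 22.3, with overlap between them. Clec4a3 had 7.23 ± 2.87 in normoxia and 12.6 ± 4.18 in hypoxia WT cultures (n = 4 each). Its neighbour Clec4a1 had 64.7 ± 3.40 CPM per kilobase in WT tumor against 5.71 ± 2.96 and 11.5 ± 3.97 in the cultures. Clec4n stood at 49.0 ± 6.89 in WT tumor, within an overlapping run from Clec4a1 to Clec12a. Clec2i, a ligand of the NK cell receptor encoded by Klrb1f, went the other way, with 1.95 ± 0.485 in WT tumor and 10.9 ± 0.373 in normoxia WT. Tissue, table and preparation cannot be told apart in these differences, which were not tested. The 3 members with the highest mean made up 55.2% of the summed CPM per kilobase of the family in normoxia WT, 55.3% in hypoxia WT and 48.0% in tumor WT.

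**Figure D1:**
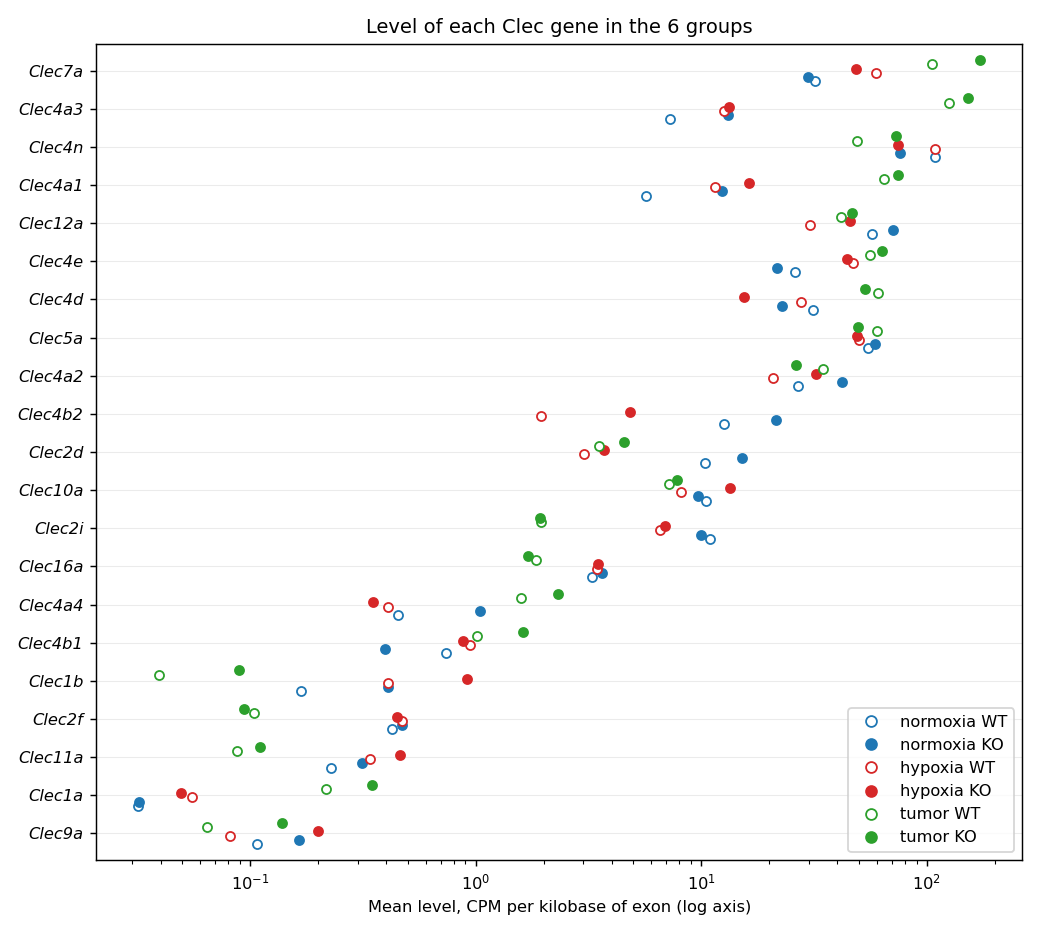
Mean level of the 21 tested Clec genes in each of the 6 groups, in CPM per kilobase of exon on a log axis, with open circles for WT and filled circles for KO; a missing circle means that the gene was not listed or was at 0. Clec4a3 and Clec4a1 lie far to the right in tumor, and Clec4n leads both WT culture groups at 108 and 109.

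In normoxia, loss of VISTA went with higher RNA of 5 Clec genes and lower RNA of 1, out of 18 tested (edgeR quasi-likelihood test, Benjamini-Hochberg adjusted p under 0.05). These 6 are 33.3% of the tested members, against 11.3% of all 13950 genes tested (7.13% higher and 4.17% lower). With library size alone as the scaling, 4 members were called higher and 3 lower, since Clec4d and Clec4e were added and Clec4a4 was lost. The groups of 5 members did not overlap, against 20% of all genes. The median log2 fold change of the members was 0.38 and that of all genes -0.020. Relatives of DCIR and DCAR, Dectin-2 and the Clr-b gene Clec2d were among the called genes.

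Clec4b2, a gene of the DCAR type that couples to FcR gamma, had 14.4, 13.2, 18.3 and 13.2 CPM in the normoxia WT libraries and 20.9, 21.9, 26.8 and 31.2 in KO. The groups did not overlap, and the log2 fold change was 0.77 ± 0.15 (SE, edgeR adjusted p = 0.0109). Clec4a2 encodes DCIR, an inhibitory receptor of myeloid and dendritic cells. It had 77.2, 66.5, 86.7 and 82.5 CPM in WT and 97.1, 107, 132 and 158 in KO, again without overlap, and rose by 0.66 ± 0.145 (edgeR adjusted p = 0.0169). Clec4a4, the gene of the related inhibitory receptor DCIR2, was near the lower limit of testing with 0.164 to 0.517 CPM in WT and 0.636 to 1.01 in KO. It rose by 1.20 ± 0.346 (edgeR adjusted p = 0.0469). Its libraries held 4 to 13 counts in WT and 15 to 22 in KO, so it passed the filter through the KO group. A gene that enters the test in this way can hardly be called lower, and its call counts in the share given above.

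Clec2d encodes Clr-b, a ligand through which cells restrain NK cells that carry the receptor of the Klrb1b gene. It had 12.8, 10.5, 14.2 and 12.6 CPM in normoxia WT and 15.9, 18.3, 19.3 and 20.1 in KO, with no overlap, and rose by 0.55 ± 0.117 (edgeR adjusted p = 0.0148). Clec1b encodes CLEC-2, the podoplanin receptor of platelets that is also found on some myeloid cells. Its normoxia levels were 0.914, 0.368, 1.27 and 0.872 CPM in WT and 2.33, 1.26, 2.19 and 2.57 in KO, so that 3 of 4 KO libraries lay above all WT libraries. It rose by 1.28 ± 0.326 (edgeR adjusted p = 0.0309). Of 4 tested platelet and megakaryocyte markers, 2 were also called higher, and the summed level of the list of 5 was 3.89 to 8.02 CPM in WT and 6.79 to 12.3 in KO. The part of these cells in the Clec1b result was not tested.

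Clec4n was the single normoxia member called lower. It had 162, 128, 181 and 143 CPM in WT and 94.4, 106, 107 and 125 in KO, without overlap, and fell by 0.51 on the log2 scale (SE 0.119, edgeR adjusted p = 0.0222). Its cluster neighbours Clec4d (MCL) and Clec4e (Mincle), which pair as receptors for mycobacterial glycolipid, had log2 fold changes of -0.45 (edgeR adjusted p = 0.0795) and -0.27 (0.138) and were not called. Clec12a had 0.30 (0.0589), Clec4a1 1.11 (0.0664) and Clec4a3 0.86 (0.0783), all 3 short of the threshold by edgeR. The DESeq2 test called Clec4d (adjusted p = 0.0484), Clec12a (0.0245) and Clec4a3 (0.0236). Clec4a1 had its highest WT value, 15.3 CPM, in replicate 3 and its highest KO value, 33.1 CPM, in replicate 4, against 5.32 to 9.14 and 12.8 to 16.5 CPM in the other libraries. The remaining 7 normoxia members, Clec16a, Clec11a, Clec2i, Clec9a, Clec5a, Clec10a and Clec7a, had log2 fold changes between -0.14 and 0.61 and edgeR adjusted p of 0.242 to 0.707.

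The number of normoxia calls rested on single libraries. Without WT replicate 1 only Clec4b2 was called, without KO replicate 3 there were 2 calls and without WT replicate 2 there were 3. Without WT replicate 3 there were 9, and without both WT replicate 3 and KO replicate 4 there were 11, of which 8 were higher and 3 lower. In that smaller comparison Clec4a1 (1.10, edgeR adjusted p = 0.0029), Clec4a3 (0.82, 0.0093), Clec4d (-0.53, 0.0067), Clec12a (0.34, 0.0232) and Clec4e (-0.31, 0.0419) joined the 6 calls. Clec4b2 was called in each of the 8 fits that left out a library, Clec2d in 7, Clec4a2 and Clec4n in 5, Clec1b in 2 and Clec4a4 in 1.

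In hypoxia, 6 of 19 tested members were called higher in KO and 1 lower. These 7 are 36.8% of the members, close to the 34.9% of all 15018 genes that were called (17.4% higher and 17.6% lower). The median log2 fold change was 0.076 for the members and -0.015 for all genes. Clec4b2, Clec4a2 and Clec1b were called higher here as in normoxia, in libraries that the normoxia comparison did not use. The share of all genes called in both conditions is not given here, so whether these repeats exceed it is not known.

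Clec4b2 had 2.65, 2.05, 2.09 and 2.38 CPM in hypoxia WT and 5.57, 5.44, 6.18 and 5.37 in KO. The groups were far apart, with a log2 fold change of 1.30 ± 0.125 (edgeR adjusted p = 2.75e-05). Clec4a2 had 61.9, 61.0, 63.3 and 56.8 CPM in WT and 97.4, 91.9, 106 and 83.8 in KO, without overlap, and rose by 0.64 ± 0.0761 (edgeR adjusted p = 0.00011). Clec12a, whose product MICL is inhibitory, had 195, 150, 163 and 161 CPM in WT and 252, 272, 229 and 261 in KO. It also showed no overlap and rose by 0.60 ± 0.0857 (edgeR adjusted p = 0.000374).

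Clec1b had 2.75, 1.51, 1.81 and 2.29 CPM in hypoxia WT and 4.87, 5.80, 3.37 and 4.62 in KO, without overlap, and rose by 1.16 ± 0.207 (edgeR adjusted p = 0.00149). All 5 platelet and megakaryocyte markers were called higher in KO as well, with sums of 116 to 137 CPM in WT and 199 to 322 in KO, and their part in the Clec1b rise was not tested. Clec9a encodes DNGR-1, through which type 1 dendritic cells sense exposed actin of dead cells. It had 0.128 to 0.501 CPM in WT and 0.360 to 0.989 in KO and rose by 1.28 ± 0.415 (edgeR adjusted p = 0.0320), while the libraries overlapped. With 4 to 16 counts in WT and 11 to 30 in KO libraries, it passed the filter through the KO group and could hardly have been called lower. Its exons overlap those of Clec1b, as given above, and the part of shared reads in its value was not tested. Of 5 tested type 1 dendritic cell markers 4 were called lower in KO, and their list of 6 summed to 60.8 to 74.4 CPM in WT and 37.2 to 54.6 in KO. The part of these cells in the Clec9a value was not tested. Clec10a, the gene of a galactose-type lectin of macrophages and dendritic cells, had 21.3, 31.8, 18.4 and 23.0 CPM in WT and 52.1, 39.2, 41.0 and 22.9 in KO, with overlap through KO replicate 4, and rose by 0.71 ± 0.239 (edgeR adjusted p = 0.0430).

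Clec4d was the hypoxia member called lower. It had 42.9, 53.6, 36.6 and 44.1 CPM in WT and 30.2, 23.2, 29.2 and 15.9 in KO, with every KO library below every WT library, and fell by 0.85 on the log2 scale (SE 0.183, edgeR adjusted p = 0.00569). Clec4n also had all KO libraries (62.0 to 131 CPM) below all WT libraries (132 to 189 CPM), with a log2 fold change of -0.55 ± 0.216 that was not called by edgeR (adjusted p = 0.0754) and was called by the DESeq2 test (-0.55, adjusted p = 0.0188). The groups of 6 members did not overlap, against 32.6% of all genes tested. Clec4e, which lies next to Clec4d, had a log2 fold change of -0.083 (edgeR adjusted p = 0.510). The other 10 members, among them Clec2d (0.30, 0.0925) and Clec7a (-0.29, 0.292), had edgeR adjusted p of 0.0925 to 0.926.

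The calls of Clec9a and Clec10a depended on single libraries. Clec9a was called in 2 of 8 fits without a library and lost its call without KO replicate 1, 2 or 4 or WT replicate 1, 2 or 3. Clec10a was called in 2 of 8 and lost its call without KO replicate 1, 2 or 3 or WT replicate 1, 3 or 4, and with no filter on low counts (edgeR adjusted p = 0.203). Clec4b2, Clec4a2, Clec12a, Clec1b and Clec4d were called in all 8.

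**Figure D2:**
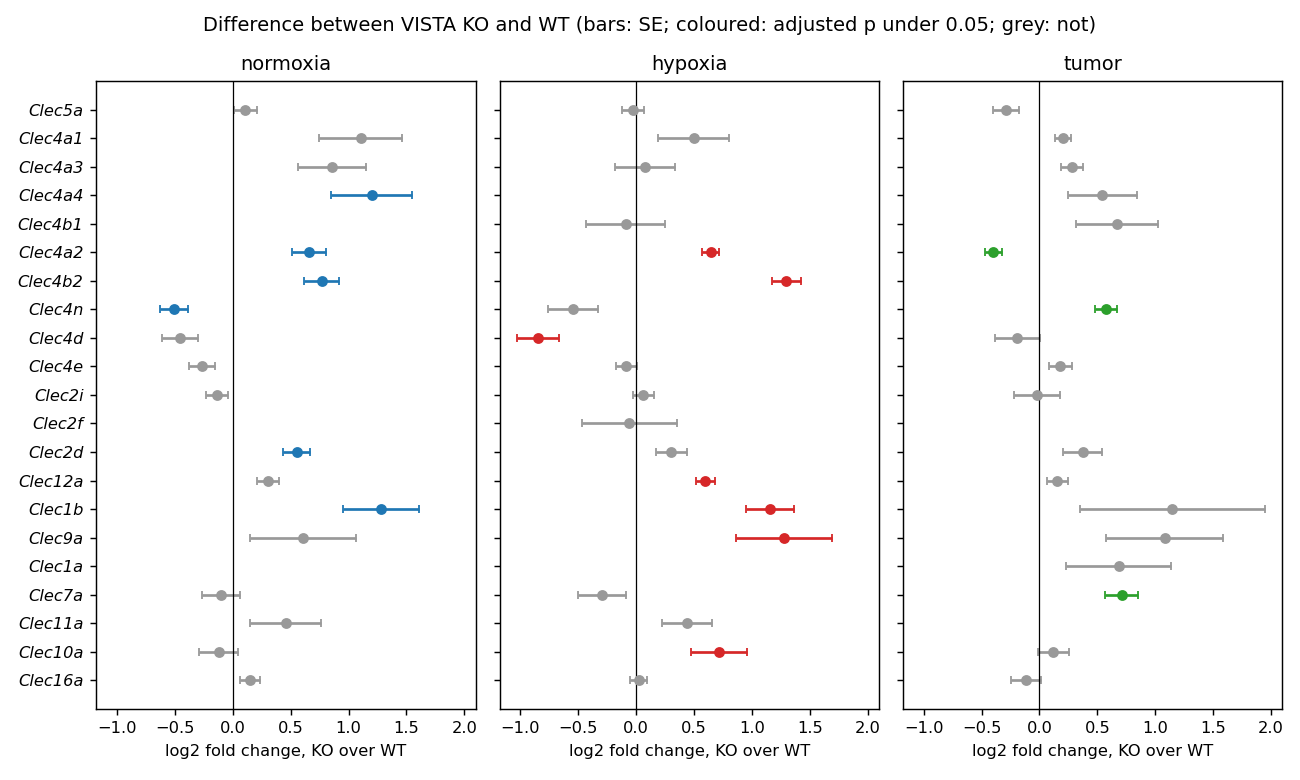
Log2 fold change of KO over WT for each tested Clec gene (rows) in normoxia, hypoxia and tumor, with bars for the SE, coloured where the edgeR adjusted p is under 0.05 and grey otherwise. The chromosome 6 genes come first in genome order, and Clec4a2 and Clec4n lie on opposite sides of 0 in the cultures and in tumor.

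In tumor tissue, 2 of 18 tested members were called higher in KO and 1 lower, which is 16.7% of the members against 6.32% of all 14370 genes tested (3.28% higher and 3.04% lower). The median log2 fold change was 0.24 for the members and 0.0098 for all genes. The called genes were the receptors for fungal mannan and beta-glucan, which rose, and DCIR, which fell. Summed markers of other cells also differed by genotype without overlap: fibroblast markers had 381 to 452 CPM in WT and 472 to 601 in KO, T and NK cell markers 7.63 to 17.0 and 4.34 to 6.86, and mast cell and basophil markers 13.3 to 24.0 and 25.1 to 37.6. Of 6 markers of type 2 dendritic cells 2 were called higher, while their sums overlapped, at 993 to 1186 CPM in WT and 979 to 1129 in KO. With the replicate block, 4 of 9 monocyte and macrophage, 3 of 5 T and NK cell and 2 of 3 platelet and megakaryocyte markers were lower. So was 1 marker each of neutrophils, type 1 dendritic cells and eosinophils. The block called 2 type 2 dendritic cell markers higher, and 1 each of the mast cell and basophil, endothelial, fibroblast and epithelial lists. The part of these cells in the tumor results was not tested.

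The labels do not state that libraries with the same number are pairs. Deviations of same-numbered libraries correlated at 0.109 to 0.338 in this experiment, and WT replicate 1 with KO replicate 2 at 0.0964. Values with the replicate number as a block are therefore given as an alternative, where they change a call.

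Clec4n had 68.0, 60.7 and 80.1 CPM in WT tumors and 98.3, 103 and 109 in KO tumors. The groups did not overlap, and the log2 fold change was 0.57 ± 0.0966 (edgeR adjusted p = 0.00379). Clec4a2 had 99.7, 101 and 104 CPM in WT and 78.9, 81.1 and 71.5 in KO, again without overlap, and fell by 0.40 on the log2 scale (SE 0.0727, edgeR adjusted p = 0.00624). Both calls were kept in each of the 6 fits without a library. Clec7a had 346, 255 and 235 CPM in WT and 473, 488 and 406 in KO, without overlap, and rose by 0.71 ± 0.14 (edgeR adjusted p = 0.0183). That call was lost without KO replicate 1, KO replicate 2 or WT replicate 2 (edgeR adjusted p = 0.0588, 0.0645 and 0.106).

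With the replicate block, 7 members were called, 5 higher and 2 lower, against 15.8% of all genes (8.1% higher and 7.67% lower). The block added Clec4a3 (0.28 ± 0.0545, edgeR adjusted p = 0.000749), Clec5a (-0.29 ± 0.0562, 0.000833), Clec4a1 (0.20 ± 0.0606, 0.0239) and Clec4e (0.18 ± 0.0574, 0.0342). Their adjusted p without the block were 0.121, 0.191, 0.121 and 0.349. Clec4d, which fell in hypoxia, had 88.7, 80.1 and 122 CPM in WT tumors and 75.0, 75.4 and 104 in KO tumors, with a log2 fold change of -0.19 and an edgeR adjusted p of 0.0504 with the block. Without KO replicate 3 there were 5 calls in place of 3. Of the 18 members, 7 had groups that did not overlap, against 26.1% of all genes.

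Several low members had large values that were not called in tumor. Clec1b had 0.537, 0.0321 and 0.0362 CPM in WT and 0.523, 0.425 and 0.413 in KO (log2 fold change 1.15 ± 0.801, edgeR adjusted p = 0.468). Sums of the 5 platelet and megakaryocyte markers were 67.2 to 138 CPM in WT tumor and 32.2 to 71.4 in KO, with a lower median in KO and overlap. Of the 3 tested, 0 were called, and with the replicate block 2 were called lower. The part of these cells in the Clec1b value was not tested. Clec9a had 0.109 to 0.269 CPM in WT and 0.425 to 0.479 in KO (1.08 ± 0.507, 0.252). With 3 to 8 counts in WT and 9 to 11 in KO libraries, it passed the filter through the KO group. Clec1a, a melanin receptor gene, reached 0.507 to 1.91 CPM in WT and 1.37 to 2.61 in KO (0.68 ± 0.454, 0.443). The shallower KO libraries were described above, and the part of depth in the tumor results was not tested.

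**Figure D3:**
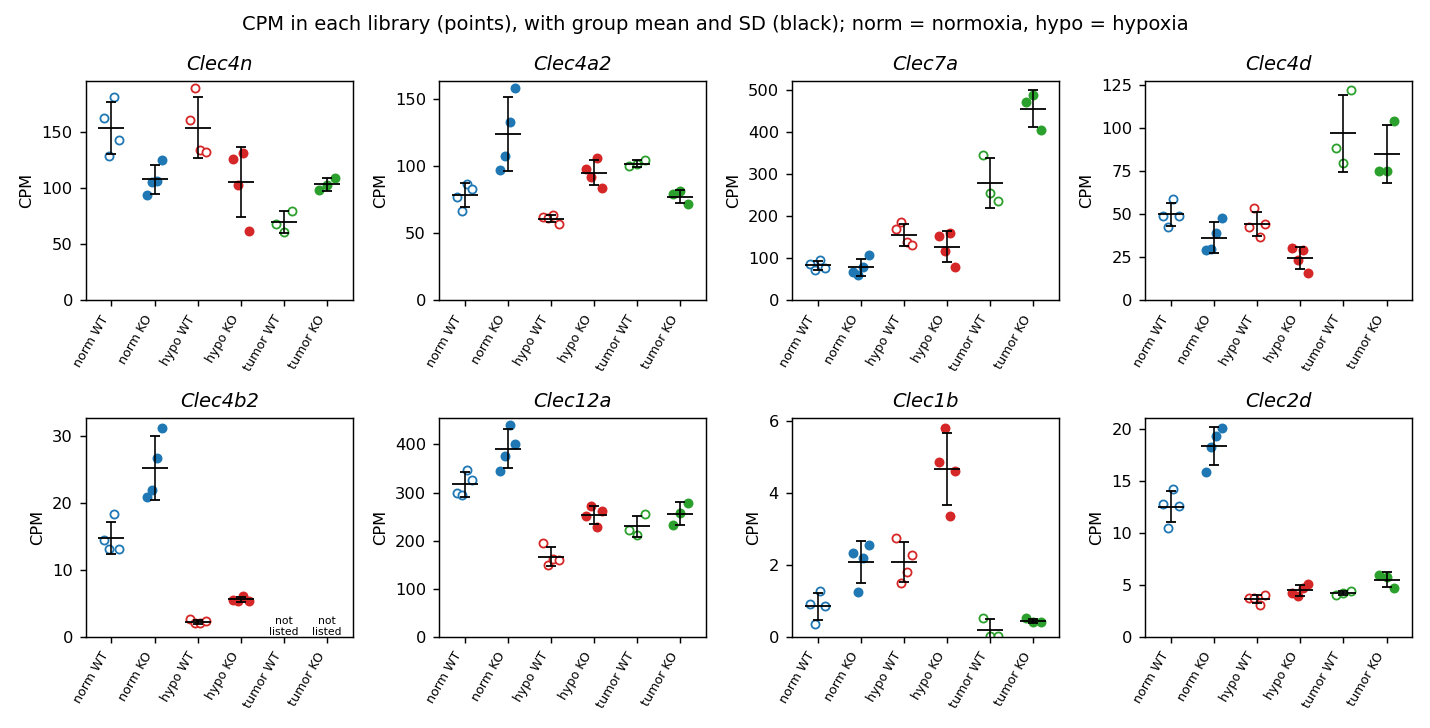
CPM of 8 Clec genes in every library, with WT as open and KO as filled points and the mean and SD of each group in black; each axis starts at 0. Clec4a2 KO points lie above WT in both cultures and below WT in tumor, and Clec4n KO points lie below WT in both cultures and above WT in tumor.

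Whether the KO effect differed between experiments was tested as the difference of log2 fold changes. Between hypoxia and normoxia, over 16 culture libraries, 0 of the 20 members that passed the joint filter differed by edgeR (adjusted p under 0.05), and 0.476% of all genes did (0.189% higher and 0.287% lower). DESeq2 also called none, and 4 members had an unadjusted p under 0.05: Clec10a (0.84 ± 0.322, edgeR adjusted p = 0.445), Clec4b2 (0.53 ± 0.205, 0.445), Clec4a4 (-1.42 ± 0.553, 0.446) and Clec12a (0.30 ± 0.134, 0.577). Clec4d, called in hypoxia only, had a difference of -0.39 ± 0.271 (0.831), and Clec2d, called in normoxia only, had -0.25 ± 0.172 (0.832). Calls in a single culture condition were therefore not shown to be particular to it.

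Between tumor and culture, over all 22 libraries, the effects on Clec4a2 and Clec4n differed in opposite directions. The KO effect on Clec4a2 was lower in tumor than in normoxia by 1.09 on the log2 scale (-1.09 ± 0.175, edgeR adjusted p = 0.000412) and than in hypoxia by 1.08 (-1.08 ± 0.175, 0.000324). The KO effect on Clec4n was higher in tumor than in normoxia by 1.05 ± 0.269 (edgeR adjusted p = 0.0249) and than in hypoxia by 1.08 ± 0.269 (0.0162). These were the only 2 of 19 members called in the first contrast, where 5.18% of all genes were called (1.84% higher and 3.34% lower). In the contrast with hypoxia, 3 of 19 were called against 7.7% of all genes (2.93% higher and 4.77% lower), the third being Clec12a, whose effect was lower in tumor (-0.48 ± 0.138, 0.0309). Both contrasts use the same 6 tumor libraries. The replicate block added Clec7a to the contrast with hypoxia (1.02 ± 0.248, edgeR adjusted p = 0.0252, against 0.96 and 0.0694 without it). In these contrasts the block also paired same-numbered culture libraries, whose deviations correlated at only -0.275 to 0.0341 in hypoxia and -0.0807 to 0.488 in normoxia.

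The Clec4a2 difference was called in all 22 fits that left out a library in each contrast. Clec4n lost its call against normoxia without normoxia WT replicate 1, tumor KO replicate 3, tumor WT replicate 1 or tumor WT replicate 2 (edgeR adjusted p up to 0.0727). It lost it against both cultures with no filter on low counts (edgeR adjusted p = 0.0687 and 0.0540). Clec12a kept its call in 14 of 22 such fits and lost it without hypoxia KO replicate 1, 2 or 4, hypoxia WT replicate 2 or 4, tumor KO replicate 1 or 2, or tumor WT replicate 3. With library size alone its difference was -0.40 and was not called (edgeR adjusted p = 0.0646). In the chromosome 6 group shown above, Clec4a2 and Clec4n lie on either side of Clec4b2, at chr6:123106428-123143999 and chr6:123229843-123247021.

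Hypoxia cultures were also compared with normoxia cultures within each genotype, a comparison in which oxygen, length of culture and table cannot be told apart. Counts of both conditions entered 1 filter here, so Clec4a4 and Clec4b1 were tested. In WT, 6 of 19 members were higher in hypoxia and 5 lower, 57.9% against 53.4% of all genes (26.1% higher and 27.3% lower). In KO, 5 of 19 were higher and 5 lower, 52.6% against 48% of all genes (25% higher and 23% lower). With library size alone, 4 members were higher and 8 lower in KO. Shares of called members were thus near those of all genes. Clec4e and Clec7a were higher in hypoxia in both genotypes, while Clec4b2, Clec2d, Clec12a and Clec2i were lower.

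Clec4b2 had 13.2 to 18.3 CPM in normoxia WT and 2.05 to 2.65 in hypoxia WT, and its log2 fold change was -2.58 ± 0.14 in WT and -2.03 ± 0.138 in KO (edgeR adjusted p = 3.97e-08 and 6.49e-07). Clec2d had 10.5 to 14.2 CPM in normoxia WT and 3.09 to 4.07 in hypoxia WT, with -1.68 ± 0.125 and -1.90 ± 0.121 (4.5e-07 and 4.67e-07). The activating receptor gene Clec4e had 120 to 141 CPM in normoxia WT and 205 to 271 in hypoxia WT, with 0.95 ± 0.0905 and 1.16 ± 0.118 (3.3e-06 and 1.46e-05). None of these ranges overlapped.

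Clec7a rose by 1.001 ± 0.12 in WT and 0.83 ± 0.227 in KO (edgeR adjusted p = 2.37e-05 and 0.0113), and the KO call was lost with no filter on low counts (0.0922). Clec12a fell by 0.82 in WT and by 0.50 in KO (1.02e-05 and 0.000952), and Clec2i fell by 0.63 and by 0.41 (1.74e-05 and 0.00929). Clec1b rose by 1.39 ± 0.295 and 1.29 ± 0.228 (0.00176 and 0.000769). The platelet and megakaryocyte sums given above were 3.89 to 12.3 CPM over the normoxia and 116 to 322 CPM over the hypoxia libraries, and their part in this rise was not tested. Clec4n (0.11 in WT, 0.090 in KO), Clec5a (-0.037 and -0.15) and Clec4d (-0.071 and -0.44) were called in neither genotype.

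Other members were called in 1 genotype. In WT these were Clec4a1 (1.11), Clec4a3 (0.91), Clec11a (0.67), which encodes a secreted growth factor of bone, and Clec4a2 (-0.26). Each lost its call in fits without 1 library: Clec4a1 and Clec4a3 without normoxia WT replicate 4 or hypoxia WT replicate 2, Clec4a2 without normoxia WT replicate 3 or 4 or hypoxia WT replicate 4, and Clec11a in 7 of 8. In KO these were Clec4a4 (-1.44), Clec10a (0.60) and Clec4b1 (1.28), an activating relative of Clec4b2. Clec4a4 was called in all 8 fits without a library and Clec10a in 2 of 8. Clec4b1 was called in 2 of the 5 fits in which it was tested. Clec4a4 had only 15 to 22 counts in normoxia KO and 5 to 14 in hypoxia KO libraries, and Clec4b1 had 2 to 9 and 11 to 37. Genes this low pass the filter mainly through the group in which they are higher. The filter thus favoured a difference, and repeated calls of these 2 genes add little. The test of the difference of effects given above called none of these genes.

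**Figure D4:**
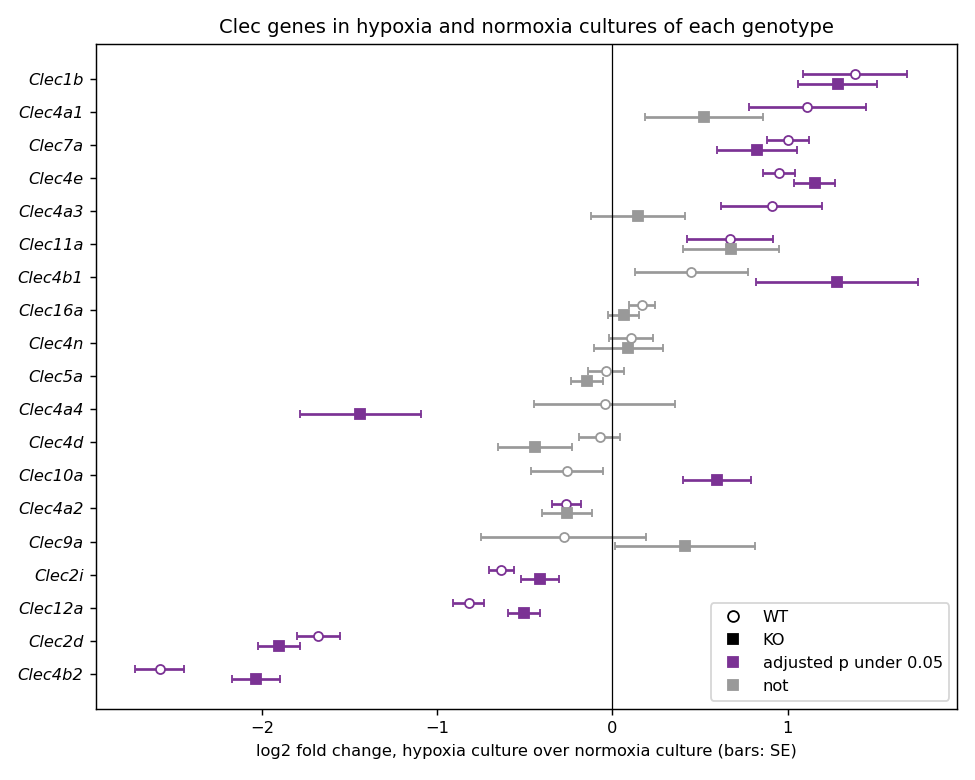
Log2 fold change of hypoxia over normoxia cultures for each tested Clec gene in WT (open circles) and KO (squares), with bars for the SE, purple where the edgeR adjusted p is under 0.05 and grey otherwise. Clec4b2 and Clec2d lie farthest to the left in both genotypes, at -2.58 and -1.68 in WT.

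Counts for the 3 gene lists that follow stand against the shares of all genes called, which were 11.3% in normoxia, 34.9% in hypoxia, 6.32% in tumor and 15.8% in tumor with the block. Of 38 tested genes of the SYK and CARD9 pathway, 2 were called higher in normoxia KO and none lower: the adaptor gene Hcst (DAP10, 0.63 ± 0.165, edgeR adjusted p = 0.0330) and Card9 (0.29 ± 0.0794, 0.0384). In hypoxia, 8 of 38 were higher and 5 lower, a share near that of all genes. Those with the smallest p were the exchange factor gene Vav3 (0.49), the transcription factor gene Irf5 (-0.42), the shared adaptor gene Fcer1g (-0.37) and Malt1 (-0.36). In tumor, 6 of 38 were higher and 1 lower. Malt1 (0.47 ± 0.0696, edgeR adjusted p = 0.00159), Irf1 (0.33) and the NF-kappaB subunit genes Nfkb1 (0.33) and Rel (0.45) were the risers with the smallest p, and the phosphatase gene Ptpn11 (-0.36), named after its value was seen, was the gene that fell. With the replicate block 11 were higher and 2 lower in tumor. The median log2 fold changes of the list were 0.15, 0.082 and 0.094 in normoxia, hypoxia and tumor.

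Further genes with a C-type lectin domain that do not carry a Clec symbol were called in both directions. In normoxia 6 of 15 tested were higher and 3 lower, with the oxidized LDL receptor gene Olr1 at -0.73, Cd209c at 2.79, the proteoglycan gene Vcan at 1.37 and the eosinophil granule gene Prg2 at 1.40. The 6 eosinophil markers summed to 23.3 to 42.4 CPM in normoxia WT and 49.4 to 91.8 in KO. In hypoxia 6 of 20 were higher and 3 lower, with Cd302 at -0.96, the NK receptor gene Klrb1f at 0.94, Prg2 at 1.34 and Prg3 at 1.32. All 6 eosinophil markers, which include Prg2 and Prg3, were called higher in hypoxia KO, with sums of 1022 to 1658 CPM in WT and 1992 to 3613 in KO. The part of these cells in the Prg2 and Prg3 values was not tested. In tumor 2 of 22 were higher and 3 lower (5 and 4 with the block), with Cd72 at -0.61, Cd209a at 1.38, Klrg1 at -2.89 and Cd93 at -0.78. Klrb1f and Klrg1 are genes of NK and T cells, whose marker sums were 9.67 to 14.7 CPM in hypoxia WT and 20.95 to 29.5 in hypoxia KO, with both tested markers called higher, and were lower in tumor KO as given above. Their part in these values was not tested.

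Among 7 tested genes that encode ligands or partners of C-type lectin receptors, 3 were higher and 1 lower in normoxia KO, 2 and 1 in hypoxia, and 1 and 0 in tumor (1 and 3 with the block). Klrb1b and Klrb1f stand in this list and in the list of further lectin-domain genes. Klrb1b, whose product binds Clr-b, rose by 1.74 ± 0.510 in normoxia and 0.74 ± 0.183 in tumor (edgeR adjusted p = 0.0492 and 0.0323). Klrb1f, the partner of Clec2i, rose by 0.69 in normoxia and 0.94 in hypoxia (0.0123 and 0.000412). Pdpn, the ligand of CLEC-2, fell by 1.44 on the log2 scale in hypoxia, from 21.6 ± 4.04 to 7.95 ± 2.56 CPM (n = 4 each, edgeR adjusted p = 0.000692). Anxa1, a ligand from dying cells, rose by 0.79 in normoxia and 0.81 in hypoxia. Vwf, listed as a ligand of Clec4m and others, fell by 0.95 in normoxia, and Clec4m is not among the members.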

How the data were processed

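Libraries were made from total RNA with SMART-Seq chemistry (Takara), as the labels' protocols state. The authors deposited raw counts per gene and a second table of the same counts times 1 size factor per library (signal, not used), made with Subread, featureCounts and DESeq2 on GRCm38.p6, per the submitters' processing notes, whose versions and strand setting are not given in the sources used here. Columns of KO cultures carry a code and were read as KO by elimination. Counts were fitted per experiment with edgeR 4.0.16 in R 4.3.3 (filterByExpr with a minimum count of 10, TMM, robust quasi-likelihood, Benjamini-Hochberg, threshold 0.05). CPM are counts over the TMM-adjusted library total, scaled to 1000000 counts, and SD and SE are given with values. Positions and exon lengths came from GENCODE M21, which held 35134 of 35255 identifiers. The members and lists were chosen with earlier results of these data known. Named genes are all members, Vsir, and up to 4 called genes per list. Alternatives were DESeq2 size factors, library size alone, no filter, the DESeq2 1.42.0 test, a replicate block and leaving out libraries. Same-numbered tumor libraries had deviations correlated at 0.109 to 0.338 in all 3 pairs. For the tumor block these numbers, shared in the sample titles, were taken as pairs, which the labels do not state. Pairs of libraries within a group differed by more than counting noise (the lowest chi-square over its degrees of freedom was 4.57). The test was checked on simulated data. Of simulated log2 changes of 0.5 it recovered 40.3% in normoxia, 61.2% in hypoxia, 46.3% in tumor and 19.4% for hypoxia minus normoxia. For changes of 1 these shares were 92.5%, 90.8%, 75.8% and 67.2%. A member that was not called may therefore still differ by such an amount.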

Additional observations from a re-analysis of the deposited data

Results flagged for a closer look

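The Clec9a level of normoxia WT replicate 1, 0.119 CPM, lay far below the 0.415, 0.424 and 0.450 CPM of the other 3 libraries of its group. It was the single such case among 74 groups of 4 libraries, and chance alone marks about 1 in 20 groups. The KO effect on Clec4a2 differed between tumor and normoxia by -1.09 and between tumor and hypoxia by -1.08 on the log2 scale (edgeR adjusted p = 0.000412 and 0.000324). The KO effect on Clec4n differed between the same pairs by 1.05 and 1.08 (0.0249 and 0.0162). The KO effect on Clec12a differed between tumor and hypoxia by -0.48 (0.0309), and was not called with library size alone (-0.40, edgeR adjusted p = 0.0646). Tumor KO libraries held fewer counts than tumor WT libraries, and the part of this in these 5 differences was not tested.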

How the results depend on the processing

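Limits: 3 or 4 libraries per group, strand setting and read assignment between relatives unknown, and low counts for Clec1b, Clec4a4, Clec9a and Clec4b1. Low members that passed the filter through the KO group count in the shares and medians given for the members. The counts of members called moved by more than 1.5 times, apart from fits without a library, with 3 settings: 11 in normoxia without KO replicate 4 and WT replicate 3 together, 7 in tumor with the replicate block, and 1 for tumor minus normoxia with no filter. Smaller moves of the count were 9 in normoxia and 8 in hypoxia by the DESeq2 test, 7 in normoxia with library size alone (4 higher and 3 lower) and 12 for hypoxia over normoxia in KO with library size alone (4 higher and 8 lower). Leaving out a library in turn gave 1 to 9 calls in normoxia, 5 to 7 in hypoxia, 2 to 5 in tumor, 7 to 11 and 8 to 11 for hypoxia over normoxia in WT and KO, 0 for hypoxia minus normoxia, 1 to 3 for tumor minus normoxia and 2 to 4 for tumor minus hypoxia. The sign turned for values that were not called: with library size alone, Clec16a in hypoxia (-0.019) and, for hypoxia minus normoxia, Clec4a2 (0.036) and Clec4n (0.010); without both normoxia libraries, Clec10a in normoxia (0.15); and, for tumor minus hypoxia, Clec2d with no filter (-0.0020) and Clec1b with library size alone (0.034) and the block (0.068). Leaving out a library also turned signs, always of values not called. The ranges were -0.23 to 0.11 for Clec10a and -0.29 to 0.016 for Clec7a in normoxia. In hypoxia they were -0.017 to 0.072 for Clec16a, -0.10 to 0.045 for Clec5a, -0.087 to 0.30 for Clec4a3, -0.51 to 0.12 for Clec4b1 and -0.48 to 0.18 for Clec2f. In tumor they were -0.037 to 0.20 for Clec10a, -0.20 to 0.018 for Clec16a and -0.17 to 0.18 for Clec2i. For hypoxia over normoxia they were -0.28 to 0.21 for Clec4a4 in WT and -0.011 to 0.45 for Clec4a3 in KO. For hypoxia minus normoxia they were -0.12 to 0.13 for Clec4a2, -0.16 to 0.15 for Clec4n, -0.37 to 0.13 for Clec1b and -0.32 to 0.0084 for Clec7a. For tumor minus normoxia they were -0.039 to 0.31 for Clec10a and -0.70 to 2.25 for Clec1b, and for tumor minus hypoxia -0.043 to 0.14 for Clec2d, -0.57 to 2.39 for Clec1b and -0.72 to 0.032 for Clec9a. The cause was not tested. Of the other values of single genes, 1634 kept direction and side of the threshold, 87 lost a call and 38 gained one.

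Library size alone moved the median of all genes in normoxia from -0.020 to -0.11 and the calls from 995 higher and 582 lower to 726 and 951, and for hypoxia over normoxia in WT from 3802 and 3975 to 2970 and 5536. DESeq2 called 193 genes in place of 73 for hypoxia minus normoxia, and with no filter 1363 genes in place of 908 were called in tumor. For tumor minus normoxia DESeq2 called 1392 genes in place of 865. Same-numbered libraries correlated at -0.0807 to 0.488 in normoxia and -0.275 to 0.0341 in hypoxia. These values cannot settle whether culture libraries were paired. The replicate block called 2278 genes in place of 1577 in normoxia and 3942 in place of 5245 in hypoxia. In the cultures, 3 of 8 normoxia and 0 of 8 hypoxia libraries correlated best with their own number, against 6 of 6 in tumor. Among the members the block gave 7 calls in normoxia, where Clec4d (-0.47, edgeR adjusted p = 0.0244) and Clec12a (0.30, 0.0220) joined and Clec4a4 (0.0558) was lost. It gave 8 in hypoxia, where it added Clec4n (-0.59, edgeR adjusted p = 0.0298). For hypoxia over normoxia, Clec4a2 (edgeR adjusted p = 0.0559) and Clec11a (0.0770) lost their calls in WT and Clec4b1 (0.0521) in KO. In tumor the block called 2266 genes in place of 908. It changed no call of the tumor comparisons beyond those given in the text.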
